A study of Mus musculus with 20 samples.

Results

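The 10 genes described here carry out reabsorption and secretion in the proximal tubule, the first segment of the nephron after the glomerular filter. They are Slc5a2, Slc5a12, Slc34a1, Lrp2, Cubn, Slc22a6, Slc22a8, Slc7a13, Slc6a19 and Aqp1. They were chosen by name, their symbols were matched to Ensembl identifiers through GENCODE vM39, and all 10 were found among the 57010 genes of the count table. RNA was sequenced from the kidneys and livers of 10 male UM-HET3 mice that were 12 months old. UM-HET3 mice come from a cross of several inbred strains, so each animal is genetically distinct. Of these mice, 6 received 7c and 4 received the vehicle alone, 50% DMSO and 50% PEG300, for 28 days from a subcutaneous osmotic minipump. The 7c cocktail, made for partial chemical reprogramming, supplied repsox, tranylcypromine, DZNep, CHIR99021, forskolin and TTNPB at 0.1 mg/kg/day each and valproate at 1 mg/kg/day. Each tissue therefore had 6 treated and 4 vehicle libraries, and no untreated mice without a pump were analysed here.

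Proximal tubule cells take back most of the glucose, phosphate, amino acids, bicarbonate, small proteins and water that the glomerulus filters. Sodium pumped out at the blood side creates the gradient that drives solute carriers in the brush border, while a pair of giant receptors captures filtered proteins for endocytosis. Other carriers at the blood side take up organic anions, among them many drugs, for secretion into the urine. The cells make up much of the kidney cortex, and their transport genes depend on transcription factors such as those of the HNF4 family, which hepatocytes also use.

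The kidney libraries held 27855849 to 64872451 counts and the liver libraries 28383359 to 34153084. The tissue labels were checked against marker genes. Umod, made by the thick ascending limb, stood at 1676 to 2442 CPM (counts per 1000000 counts of the library) in the kidneys and at 0 counts in all 10 livers, and hepatocyte genes summed to at least 82047 CPM in every liver and at most 363 CPM in any kidney. Kidneys of 7c replicate 5 and vehicle replicate 2 stood apart from the other 8. Their normalization factors were 0.929 and 0.906 against 0.994 to 1.05 in the rest, and their short genes were high relative to long genes, by 0.364 and 0.347 on a log2 scale against -0.265 to 0.158. The log2 fold change of each member in kidney is therefore also given without these 2 kidneys, a fit in which 0 of the 10 members and 0 of 65 further proximal tubule genes passed the test.

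Promoter sequences of 2 of the 10 genes are shown, that of the most abundant member, Slc34a1, and that of the member next in level per length, Slc7a13, because both hold the letters CAAAG, the core of the site that HNF4 factors are known to recognize. The window was the 250 bases before the start of the canonical transcript in GRCm39. For Slc34a1 it was chr13:55547256-55547505 and for Slc7a13 chr4:19818475-19818724, both on the + strand. Capitals mark the core, which reads CTTTG here because it lies on the strand opposite to the gene in each case, and both sequences run in the direction of the gene.
Slc34a1: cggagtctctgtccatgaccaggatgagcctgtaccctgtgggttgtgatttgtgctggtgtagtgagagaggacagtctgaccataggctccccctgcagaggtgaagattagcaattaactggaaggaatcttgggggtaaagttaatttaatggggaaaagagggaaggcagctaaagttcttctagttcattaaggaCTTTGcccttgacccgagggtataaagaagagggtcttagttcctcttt
Slc7a13: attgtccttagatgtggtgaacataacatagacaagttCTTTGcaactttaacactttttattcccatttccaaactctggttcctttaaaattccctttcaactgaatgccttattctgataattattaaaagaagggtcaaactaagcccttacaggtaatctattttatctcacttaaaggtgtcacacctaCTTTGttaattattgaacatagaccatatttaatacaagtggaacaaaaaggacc
Slc34a1 carried the core once, 49 bases before its start, and Slc7a13 carried it at 55 and at 212 bases before its start. On either strand, the core was in the windows of 7 of the 10 members, of 41 of 65 further proximal tubule genes, and of 49.3% of the 21757 protein-coding genes read in the same way, so it is a common run of letters. Of 2 other motifs searched on both strands, the longer HNF4 site CAAAGTCCA, which contains the core, was in none of the 10 windows and in 0.372% of all promoters, and the TATA box letters TATAAA were in 1 of 10, Slc34a1 at 29 bases before its start, and in 11.9% of all promoters.

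All 10 genes were abundant in every kidney, and together they took 1.24% to 1.51% of all kidney counts. The lowest count of any member in any kidney was 2568, for Slc5a12. Counting error, with counts taken as independent, was thus at most 1.97% of a value. Levels between genes are compared per length, as CPM per kilobase of exon. Slc34a1, the sodium-phosphate cotransporter of the brush border, led with 1049 ± 93.5 CPM per kilobase (SD over 10 kidneys), the level of rank 16 among 32173 genes with a kidney count. It held on average 48.4% of the CPM of the 10 members. Slc7a13 followed at 425 ± 82.8 and Slc22a6 at 407 ± 52.1 CPM per kilobase, and these neighbours did not differ beyond their spread, since Slc7a13 was the higher in 6 of 10 kidneys.

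Next in order of level per length came Aqp1 at 299 ± 25.9 CPM per kilobase, below Slc22a6 in all 10 kidneys, and Slc5a2 at 176 ± 22.4, below Aqp1 in all 10. The next neighbours had overlapping ranges. Slc22a8 stood at 105 ± 26.1 CPM per kilobase, Lrp2 at 93.3 ± 14.0 and Slc6a19 at 69.2 ± 20.2. Slc5a12 at 24.6 ± 9.21 and Cubn at 23.1 ± 0.813 CPM per kilobase shared the lowest place, each being the higher in 5 of 10 kidneys. The mean level of Slc34a1 per length was 45.4 times that of Cubn.

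None of the 10 genes passed the test for a change with 7c in kidney. In the quasi-likelihood test of edgeR with Benjamini-Hochberg adjustment, the adjusted p was 0.998 for Slc34a1 and 0.997 for each of the other 9. Over all genes tested in kidney, 0 of 17749, or 0%, passed an adjusted p of 0.05, 463 had an unadjusted p under 0.05, and the smallest adjusted p was 0.0686. Other tools called 18 genes (DESeq2), 14 (edgeR's likelihood ratio test) and 2 (limma-voom), none of them a member. For no member did the 6 kidneys given 7c and the 4 given vehicle separate without overlap, which 0.716% of tested genes did. In whole tissue, fewer cells of a type and less RNA per cell cannot be told apart.

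**Figure D1:**
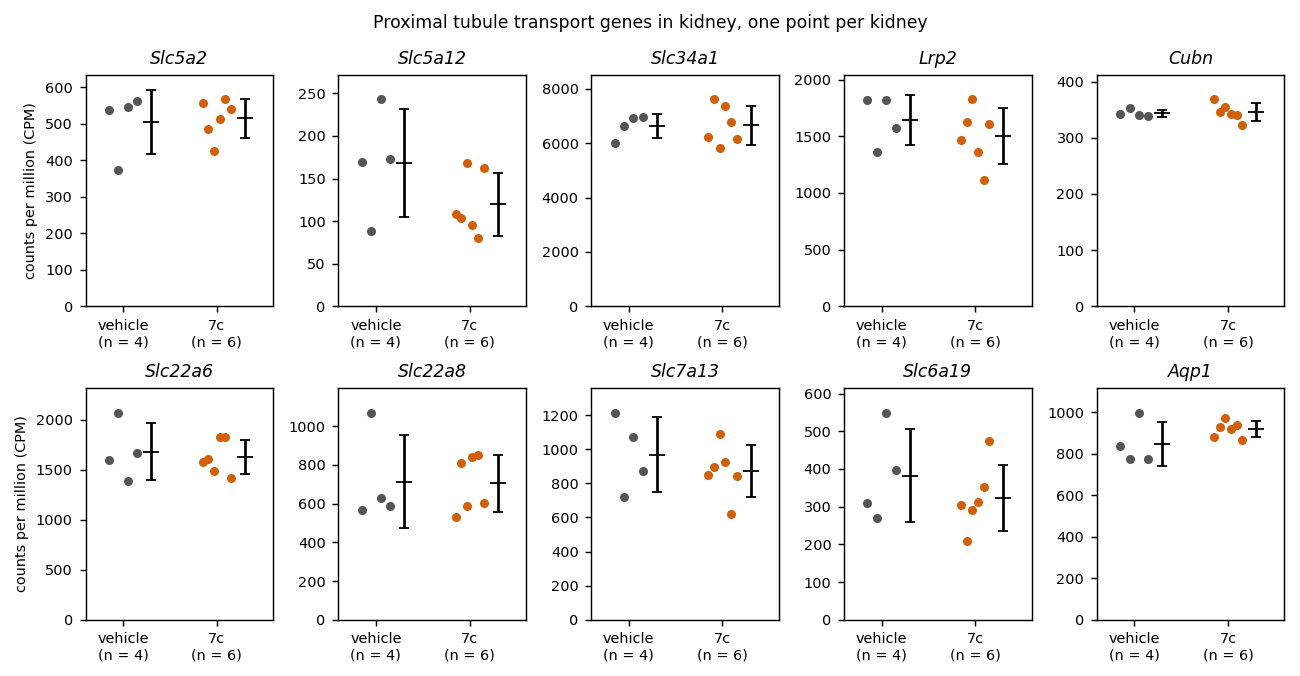
CPM of each gene (vertical axes from 0) in the 4 vehicle kidneys (grey) and the 6 kidneys given 7c (orange); each point is 1 kidney, and the bar beside them is the mean ± SD. The groups overlap in all 10 panels, and Cubn has the narrowest spread.

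The first 3 members are sodium-coupled carriers of the brush border. Slc5a2 (ENSMUSG00000030781, chr7:127864829-127871602) encodes the glucose carrier that takes back most of the filtered glucose and is the target of the gliflozin drugs. It stood at 538, 373, 545 and 564 CPM in vehicle kidneys 1 to 4, and at 426, 527 and 567 CPM (lowest, median, highest) in the kidneys given 7c. Vehicle replicate 2 was the lowest of all 10 kidneys, and the other 3 vehicle kidneys lay inside the range of those given 7c. The log2 fold change was 0.03 ± 0.13 (SE), with a 95% interval of -0.26 to 0.32, and it was -0.12 without the 2 kidneys that stood apart.

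Slc5a12 (ENSMUSG00000041644, chr2:110427639-110479688), a sodium-coupled carrier of lactate and other monocarboxylates, varied the most. Vehicle kidneys held 169, 88.0, 243 and 173 CPM, and kidneys given 7c held 80.4, 106 and 169 CPM (lowest, median, highest). Vehicle replicate 2 lay among the low 7c kidneys, and 1 of the 6 kidneys given 7c fell below the vehicle range. The log2 fold change of -0.49 ± 0.27 was the largest in size among the members, with a 95% interval of -1.07 to 0.09 and an unadjusted p of 0.0885 in the edgeR fit. Without the 2 kidneys that stood apart it was -0.62 (edgeR unadjusted p = 0.0103, adjusted p = 0.580). With the short-minus-long value of each kidney as a covariate it was -0.25. Leaving out 1 kidney gave -0.26 (without vehicle replicate 3) to -0.70 (without vehicle replicate 2).

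Slc34a1 (ENSMUSG00000021490, chr13:55546000-55563413) recovers filtered phosphate under the control of parathyroid hormone and FGF23. Its levels were 5998, 6630, 6920 and 6965 CPM in the vehicle kidneys, and 5821, 6505 and 7607 CPM (lowest, median, highest) in those given 7c. The 7c kidneys extended past the vehicle range at both ends, 1 below and 2 above. Its log2 fold change was 0.01 ± 0.11 with a 95% interval of -0.23 to 0.25, that is 0.851 to 1.19 as a fold, and it was 0.00066 without the 2 kidneys that stood apart.

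Lrp2 and Cubn encode megalin and cubilin, the receptors that bind filtered proteins such as albumin and vitamin carriers and deliver them to endosomes. Lrp2 (ENSMUSG00000027070, chr2:69254682-69416409) stood at 1821, 1365, 1817 and 1577 CPM in the vehicle kidneys and at 1119, 1538 and 1826 CPM (lowest, median, highest) with 7c. Of the 6 kidneys given 7c, 2 were below the vehicle range and 1 above it. Its log2 fold change was -0.13 ± 0.14, with a 95% interval of -0.44 to 0.18, and -0.14 without the 2 kidneys that stood apart. It shrank to -0.06 without 7c replicate 5 alone, grew to -0.20 without vehicle replicate 2 alone, and was -0.05 with the short-minus-long covariate.

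Cubn (ENSMUSG00000026726, chr2:13281149-13496624) was almost level across the mice. Vehicle kidneys held 342, 353, 340 and 339 CPM, and kidneys given 7c 322, 344 and 368 CPM (lowest, median, highest). Its log2 fold change was 0.01 ± 0.09, with a 95% interval of -0.18 to 0.20, and without the 2 kidneys that stood apart it was 0.02. The log2 ratio of Cubn to Lrp2 counts averaged -2.10 ± 0.25 (SD, n = 6) with 7c and -2.25 ± 0.22 (n = 4) with vehicle, a difference that did not pass a two-sided exact permutation test (p = 0.352, adjusted over the 3 ratios tested 0.671). The difference of 0.15 ran from 0.07 to 0.25 on leaving out 1 kidney.

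Slc22a6 and Slc22a8 encode the organic anion carriers of the blood side, which take up drugs, toxins and metabolites such as urate for secretion. The genes lie next to each other on chromosome 19 with 5.81 kilobases and no protein-coding gene between them. Slc22a6 (ENSMUSG00000024650, chr19:8595356-8605663) stood at 1592, 2069, 1385 and 1668 CPM in the vehicle kidneys and at 1418, 1592 and 1829 CPM (lowest, median, highest) with 7c, all 6 inside the vehicle range. Its log2 fold change was -0.05 ± 0.13, with a 95% interval of -0.33 to 0.23, and it was 0.03 without the 2 kidneys that stood apart.

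Slc22a8 (ENSMUSG00000063796, chr19:8568476-8589541) held 566, 1071, 628 and 590 CPM in the vehicle kidneys and 533, 706 and 853 CPM (lowest, median, highest) in those given 7c. Vehicle replicate 2, high here as for Slc22a6, was above every other kidney. The log2 fold change was -0.02 ± 0.21 with a 95% interval of -0.46 to 0.43, and without the 2 kidneys that stood apart it was 0.18. The log2 ratio of Slc22a6 to Slc22a8 counts was 1.22 ± 0.21 (SD, n = 6) with 7c and 1.27 ± 0.27 (n = 4) with vehicle (two-sided exact permutation test, p = 0.771, adjusted p = 0.771).

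Amino acid carriers are represented by Slc7a13 and Slc6a19. Slc7a13 (ENSMUSG00000041052, chr4:19818725-19842218) encodes an exchanger of cystine and acidic amino acids of the late proximal tubule. Its levels were 1215, 717, 1069 and 872 CPM with vehicle and 618, 873 and 1090 CPM (lowest, median, highest) with 7c. The lowest kidney of each group was one of the 2 that stood apart. A log2 fold change of -0.15 ± 0.17 was fitted, with a 95% interval of -0.52 to 0.22, and it was -0.19 without these 2. A single kidney moved it more, to -0.03 without vehicle replicate 1 and to -0.27 without vehicle replicate 2, and with the covariate it was -0.03.

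Slc6a19 (ENSMUSG00000021565, chr13:73827860-73852984), the brush border carrier of neutral amino acids that is lost in Hartnup disorder, held 311, 270, 549 and 396 CPM with vehicle and 208, 308 and 474 CPM (lowest, median, highest) with 7c. Vehicle replicate 3 was the highest of the 10 kidneys and 7c replicate 2 the lowest. The log2 fold change was -0.24 ± 0.23 with a 95% interval of -0.73 to 0.25, and -0.40 without the 2 kidneys that stood apart. Nearly all of the difference rested on vehicle replicate 3, without which it was -0.01, while without 7c replicate 6 it was -0.38. Slc7a13, which marks the late part of the tubule, was also set against Slc5a2, which marks the early part. The log2 ratio of their counts was 0.74 ± 0.40 (SD, n = 6) with 7c and 0.93 ± 0.23 (n = 4) with vehicle, and this difference did not pass either (two-sided exact permutation test, p = 0.448, adjusted p = 0.671). The difference of -0.19 shrank to -0.06 when 7c replicate 5 was left out and grew to -0.31 when 7c replicate 3 was, with an unadjusted exact permutation p of 0.0952.

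Aqp1 (ENSMUSG00000004655, chr6:55313068-55325540) encodes the water channel of the proximal tubule and thin descending limb, which endothelium and other epithelia also make. The vehicle kidneys held 838, 774, 998 and 774 CPM, and the kidneys given 7c 866, 924 and 972 CPM (lowest, median, highest). All 6 kidneys given 7c were above 3 of the 4 vehicle kidneys and below vehicle replicate 3. The log2 fold change was 0.12 ± 0.10, with a 95% interval of -0.11 to 0.34, and 0.07 without the 2 kidneys that stood apart. Leaving out 1 kidney gave 0.08 to 0.21, the latter without vehicle replicate 3.

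**Figure D2:**
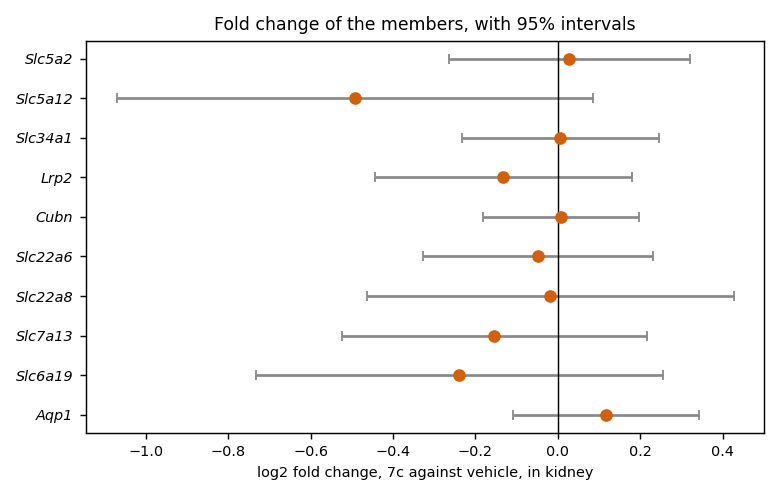
Log2 fold change of 7c against vehicle in kidney for each gene (horizontal axis), from the edgeR fit with 6 and 4 kidneys; bars are 95% intervals. Every interval includes 0, and the intervals run from -0.18 to 0.20 for Cubn up to -1.07 to 0.09 for Slc5a12.

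Over the 10 members, 4 fitted log2 fold changes were above 0 and 6 below, and their median was -0.03, beside a median of -0.01 over all tested genes. Among 65 further proximal tubule genes, listed by role with earlier results of these data known, 0 passed the test in either direction in kidney, and 22 fitted values were above 0 and 43 below, with a median of -0.09. On leaving out 1 kidney in turn, the sign turned for 26 of the 65 and for 5 of the 10 members. Values of those named follow the same order of roles. In the group of sugar and organic acid carriers, 0 of 11 passed, with 4 fitted values above 0 and 7 below. The dicarboxylate carrier Slc13a3, its most abundant gene at 979 CPM, had a log2 fold change of 0.15, and the largest difference was that of Slc23a3, at 0.27 with 4 of 6 kidneys given 7c above the vehicle range. Leaving out 1 kidney gave 0.04 to 0.23 for Slc13a3 and 0.18 to 0.34 for Slc23a3.

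The 11 genes of amino acid and peptide transport had 0 called, with 9 of 11 fitted values below 0. Cltrn, the partner that brings Slc6a19 to the brush border, was the most abundant at 1674 CPM. It had a log2 fold change of -0.22, with 4 of the 6 kidneys given 7c below the vehicle range, beside -0.24 for Slc6a19 itself, and neither passed the test. Without the 2 kidneys that stood apart, Cltrn had -0.20. Slc15a1, a peptide carrier at only 0.690 CPM, had the largest difference, at 0.29, which was 0.10 without vehicle replicate 2 and 0.44 without vehicle replicate 1.

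Phosphate, acid and ion transport gave 0 of 12 genes called, with 5 fitted values above 0 and 7 below. Fxyd2, a regulator of the sodium pump, stood at 2485 CPM with a log2 fold change of 0.12, and Slc4a4, the bicarbonate exit of the blood side, had -0.28. Organic ion and drug carriers gave 0 of 19, with 8 fitted values above 0 and 11 below. The urate carrier Slc22a12, at 1418 CPM, had 0.19 and the efflux pump Abcc2 had 0.26. In the endocytosis group 0 of 7 passed, with 3 fitted values above 0 and 4 below. Lrpap1, the chaperone of megalin, had 0.09 at 755 CPM, and Amn, the membrane anchor of cubilin, had 0.33. Leaving out the 2 kidneys that stood apart raised 3 of these log2 fold changes by more than 1.5 times, to 0.38 for Fxyd2, 0.42 for Slc22a12 and 0.56 for Amn, each with an adjusted p of 0.580 in the edgeR fit. On leaving out 1 kidney, Fxyd2 ran from -0.11 to 0.62, Slc4a4 from -0.42 to -0.15, Slc22a12 from 0.05 to 0.48, Abcc2 from 0.16 to 0.50, Amn from 0.15 to 0.74 and Lrpap1 from -0.02 to 0.19, so that the signs for Fxyd2 and Lrpap1 turned.

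All 5 transcription factors of the list had fitted values below 0, of which 3 turned sign on leaving out 1 kidney, and 0 of 5 passed the test. Hnf4a stood at 997 CPM with a log2 fold change of -0.03, which ran from -0.07 to 0.01 on leaving out 1 kidney. Maf had the lowest unadjusted p of the 65 genes, 0.0147 in the edgeR fit, with an adjusted p of 0.997. It ranged from 191 to 259 CPM with 7c and from 256 to 288 CPM with vehicle, 5 of 6 kidneys given 7c were below the vehicle range, and its log2 fold change was -0.30 with a 95% interval of -0.53 to -0.07. Without the 2 kidneys that stood apart, Maf had -0.29.

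Marker genes of other cells in the same kidneys were also read. Adipocyte genes summed to 57.4 to 167 CPM with 7c and to 37.1 to 49.5 CPM with vehicle. All 6 tested genes of the 7 had fitted values above 0 and unadjusted p under 0.05, none passed edgeR's quasi-likelihood test after adjustment, and the examples were Cidec at 2.55 and Fabp4, the most abundant, at 0.77 (log2 fold change). Cidec, a protein of lipid droplets, was called by DESeq2 and by edgeR's likelihood ratio test. Hepatocyte genes summed to 99.5 to 357 CPM with 7c and to 223 to 363 CPM with vehicle, with 6 of 7 fitted values below 0, 5 at an unadjusted p under 0.05 and none called by the quasi-likelihood test. Mup3 had -2.76 and Ttr, the most abundant, -0.08, which ran from -0.30 to 0.09 on leaving out 1 kidney. Mup3 and Cyp2c29, the latter at -2.60, were called by DESeq2, by the likelihood ratio test and by the quasi-likelihood test with both tissues in 1 fit, and Mup3 also without 7c replicate 6. No marker of either list was at 0 in all 10 kidneys, and the part of these cells in the values of the members was not tested.

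In liver, 8 of the 10 members were at or near 0. Slc5a12 and Slc34a1 had 0 counts in all 10 livers. Slc5a2, Slc22a6, Slc7a13 and Slc6a19 had counts in 1 liver each, at most 4, Slc22a8 had 6 counts in 2 livers and Cubn 16 counts in 5. A count of 0 allows a level of up to 3 counts, worth 0.0852 to 0.108 CPM in these livers, with counting error only and counts taken as independent. The 10 liver counts of Lrp2, from 12 to 58, were all even, and whether counts were independent was not tested. Members held 0.00563% to 0.0122% of liver counts, nearly all of it Aqp1.

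**Figure D3:**
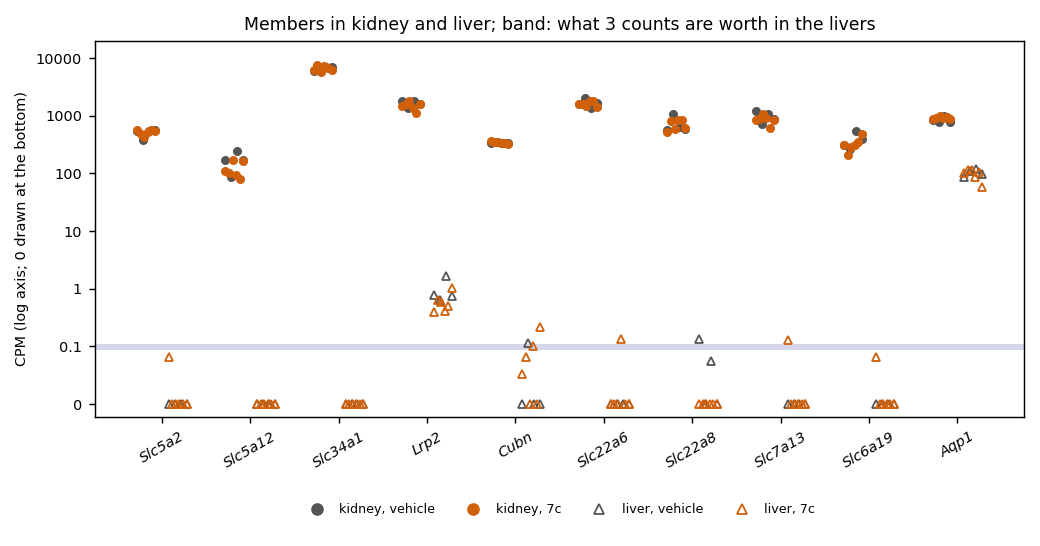
CPM of each gene on a log axis in kidneys (filled circles) and livers (open triangles), vehicle in grey and 7c in orange, with values of 0 drawn at the bottom of the axis and a band at what 3 counts are worth in the livers. Only Aqp1 (58.7 to 117 CPM) and Lrp2 (0.393 to 1.65 CPM) lie above the band in every liver.

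The vehicle groups alone give the tissue difference. In that comparison 53.4% of 17245 tested genes passed an adjusted p of 0.05, 4776 higher in kidney and 4439 higher in liver. For 6 members, all with 0 counts in the vehicle livers, the lowest vehicle kidney was set against 3 counts in the vehicle liver where these were worth most, 0.124 CPM, with both tissues scaled together as in the fit. On that scale Slc34a1 was at least 38864-fold higher in kidney, Slc22a6 at least 8972-fold, Slc7a13 at least 4719-fold, Slc5a2 at least 2454-fold, Slc6a19 at least 1780-fold and Slc5a12 at least 579-fold. With CPM scaled within each tissue the same ratios were higher, 60669 for Slc34a1 and 890 for Slc5a12. The bounds take counts as independent. These 6, with Slc22a8 and Cubn, passed the filter on low counts only through the kidney and so had to differ, and no test of them is given.

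Lrp2 and Aqp1 passed the count filter in liver as well. Lrp2 held 0.792, 0.630, 1.65 and 0.760 CPM in vehicle livers 1 to 4, from 130 counts in all, and its log2 fold change of kidney over liver was 10.11, with a 95% interval of 9.34 to 10.88 and an adjusted p of 2.46e-09 in edgeR's quasi-likelihood test. Aqp1 held 85.7, 112, 117 and 97.0 CPM in vehicle livers, and its log2 fold change of kidney over liver was 2.41, with a 95% interval of 2.06 to 2.76 and an adjusted p of 2.67e-07 in the same test. The order of the tissues held in every pair of libraries for both genes. The fit normalized across both tissues, which instead of normalizing within each lowers every kidney-over-liver log2 value by 0.63, a shift that turns neither direction.

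A factor that binds the HNF4 site was present in both tissues. Hnf4a averaged 1008 ± 48.8 CPM in vehicle kidneys and 604 ± 103 CPM in vehicle livers (SD, n = 4 each), and on this scale, set within each tissue, the kidneys (955 to 1073 CPM) lay above all 4 livers (457 to 676 CPM). The fit, whose scaling across tissues lowers kidney-over-liver log2 values by 0.63, gave a log2 fold change of 0.11, a 95% interval of -0.24 to 0.45 and an adjusted p of 0.598 in edgeR's quasi-likelihood test. Of the 65 further genes, 43 passed the count filter in liver, and of these 31 were higher in kidney, 6 higher in liver and 6 not called, with a median log2 fold change of 2.09.

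With 7c, neither gene that could be tested in liver passed the threshold. Only 0.00666% of 15012 genes tested in liver passed the adjusted test, 565 had an unadjusted p under 0.05, and the groups of 0.719% did not overlap. Lrp2 ranged from 0.393 through a median of 0.552 to 1.01 CPM in livers given 7c, with a log2 fold change of -0.69 and a 95% interval of -1.65 to 0.27, and 1.65 CPM in vehicle replicate 3 was the highest value. Without that liver the log2 fold change was -0.29. Aqp1 ranged from 58.7 through 103 to 113 CPM with 7c, with a log2 fold change of -0.10 and a 95% interval of -0.45 to 0.25. In the interaction fit, the effect of 7c in kidney minus that in liver was 0.58 for Lrp2, with a 95% interval of -0.13 to 1.28 and a value of 0.18 without that liver. For Aqp1 it was 0.23, with a 95% interval of -0.20 to 0.66, and it ran from 0.12 to 0.31 on leaving out 1 library. Neither passed the test (edgeR's quasi-likelihood adjusted p 1.00 for each), as 0.00706% of 14163 genes did.

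The 10 genes differed widely in how much they varied between mice. Over the 10 kidneys, the coefficient of variation (CV, the SD as a percentage of the mean CPM) was 3.52% for Cubn, and only 0.0732% of tested genes had a lower one. Counting error alone, with counts taken as independent, came to as much as 1.01% for Cubn. Aqp1 at 8.67% and Slc34a1 at 8.91% were also steady, each below the 15.8% that was the median of the 1802 genes over 100 CPM. Slc5a2 at 12.7%, Slc22a6 at 12.8% and Lrp2 at 15.05% stood just below that median.

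The remaining 4 genes were above it. Slc7a13 had a CV of 19.5%, Slc22a8 24.8%, Slc6a19 29.2% and Slc5a12 37.5%. For Slc5a12, 73.1% of tested genes had a lower CV, and the highest kidney held 3.02 times the lowest. Cubn, whose receptor works as a complex with megalin, thus ranged 1.14-fold over the same kidneys in which Lrp2 ranged 1.63-fold.

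As a group the members did not rise and fall together from mouse to mouse. Among their 45 pairs, 23 had a Pearson correlation of log2 CPM over the 10 kidneys above 0 and 22 below, and the median r was 0.000827. Lrp2 and Slc7a13 rose together, with r = 0.90 (permutation p adjusted over 45 pairs 0.0229) and Spearman's rho 0.77 (adjusted permutation p = 0.206). Slc5a12 and Lrp2 had r = 0.85 (permutation p adjusted over 45 pairs 0.0468) and rho 0.75 (adjusted permutation p = 0.206). For the first pair, leaving out the 2 kidneys farthest from the median of Lrp2 gave r = 0.94 and leaving out those farthest for Slc7a13 gave r = 0.78. For the second pair, r was 0.81 without the 2 farthest for Slc5a12 and 0.80 without those farthest for Lrp2. A correlation of 0.8 or more was found in 4.44% of member pairs and in 3.44% of all pairs of tested genes.

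Much of the kidney transcriptome, members included, varied with a measure of library composition. A correlation of 0.8 or more in size with it was found in 29.0% of all tested genes and in 4 of the 10 members. For each kidney, the median log2 deviation of the 4431 tested genes of up to 2848 bases of exon was compared with that of the 4425 genes of at least 8370 bases. This short-minus-long value, which can move with RNA quality, ran from -0.265 in vehicle replicate 3 to 0.364 in 7c replicate 5. Mitochondrial genes took 3.98% to 9.15% of kidney counts, with 7c replicate 5 the lowest.

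Lrp2 fell as the short-minus-long value rose, with r = -0.94 over the 10 kidneys (adjusted permutation p = 0.000609) and rho = -0.90 (adjusted permutation p = 0.0076), and r = -0.95 without the 2 kidneys farthest from the median. Slc5a12 had r = -0.93 (adjusted permutation p = 0.000609), rho = -0.94 (adjusted permutation p = 0.00296) and r = -0.93 without those 2. Slc7a13 had r = -0.87 (adjusted permutation p = 0.00537), rho = -0.77 (adjusted permutation p = 0.042) and r = -0.66 without those 2. All 3 were lowest in 7c replicate 5 and among the 3 lowest kidneys in vehicle replicate 2.

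Both organic anion carriers ran the other way. Slc22a6 had r = 0.86 (adjusted permutation p = 0.00623), rho = 0.79 (adjusted permutation p = 0.0322) and r = 0.73 without the 2 farthest kidneys. Slc22a8 had r = 0.80 (adjusted permutation p = 0.0213), rho = 0.60 (adjusted permutation p = 0.157) and r = 0.55 without those 2, so that its relation rests in part on them. Within the 6 kidneys given 7c alone, r was -0.98 for Lrp2, -0.94 for Slc5a12, -0.83 for Slc7a13, 0.89 for Slc22a6 and 0.66 for Slc22a8, and no value is given within the 4 vehicle kidneys, since correlations are reported over at least 6. The p-values were adjusted over all 17749 tested genes, of which 38.4% passed by Pearson's r and 31.8% by Spearman's rho, beside 5 and 4 of the 10 members, shares near that background.

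**Figure D4:**
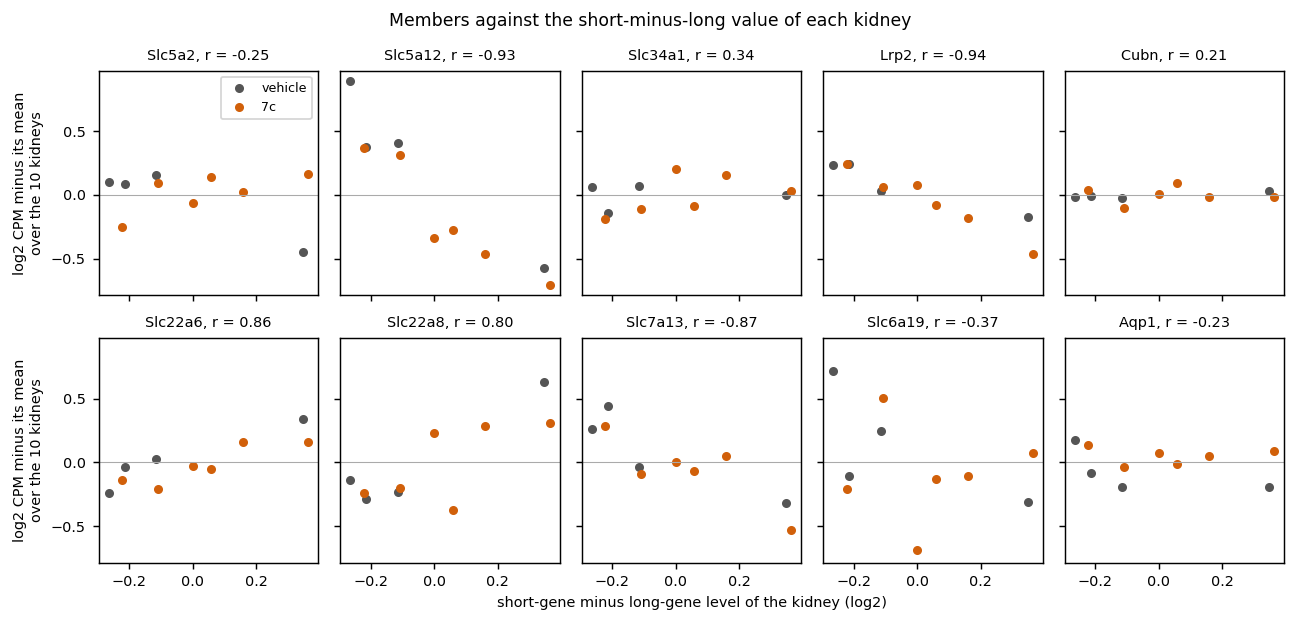
Log2 CPM of each gene minus its mean over the 10 kidneys (vertical axis) against the short-minus-long value of the kidney (horizontal axis, log2), vehicle in grey and 7c in orange; r is Pearson's correlation over 10 kidneys. Slc5a12, Lrp2 and Slc7a13 fall from left to right, Slc22a6 and Slc22a8 rise, and Cubn stays near 0.

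Exon length of the gene itself did not sort the members into those that fell and those that rose. Lrp2 with 16703 bases and Slc7a13 with 2141 bases both fell, and Slc22a8 with 6732 bases rose. Cubn, with 14935 bases, had r = 0.21 (adjusted permutation p = 0.666). The part of RNA quality in these values was not tested.

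Other genes were ranked by Pearson correlation of log2 CPM over the 10 kidneys with the mean of the 10 standardized members. This mean stands poorly for single members. Their r with the mean of the other 9 ran from -0.71 (Slc22a6) to 0.25 (Slc7a13). The 5 highest were 4930469K13Rik (0.90), Ripk1 (0.90), Xpr1 (0.90), Ddx19a (0.90) and Ccr2 (0.89), and the 5 lowest were Ccl27a (-0.90), Cep78 (-0.89), K230015D01Rik (-0.88), Cdpf1 (-0.88) and Gata3 (-0.88). These are the extremes of 17749 genes over 10 kidneys and are given as a description only. Vehicle replicate 3 had the highest member mean, at 0.563 SD, and vehicle replicate 2 the lowest, at -0.297 SD. Gene models on the opposite strand overlap Slc5a2 (Rusf1), Slc34a1 (Pfn3), Cubn (Gm13270 and Gm75437) and Slc6a19 (Slc6a19os). The strand setting of the counting was not given in the sources used here, so for these 4 genes a share of the counts could belong to the partner.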

How the data were processed

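RNA from about 30 mg of flash-frozen kidney or liver was made into libraries with the TruSeq Stranded mRNA kit. The authors mapped reads to GRCm39 with STAR 2.7.11b and counted them with featureCounts 2.0.6, and they deposited raw counts per gene, which are the unit used here. The annotation release, the strand setting and the handling of multimapping reads are not given in the sources used here.

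A gene entered a fit when 50% or more of its libraries held 10 or more counts, and was tested with the edgeR 4.0.16 quasi-likelihood test in R 4.3.3 after TMM normalization, with Benjamini-Hochberg adjustment over all genes and a threshold of 0.05. CPM used TMM factors within each tissue. Names, positions and exon lengths came from GENCODE vM39, promoters from GRCm39. Ratios were tested by exact permutation with 0.5 added to each count, and correlations with 100000 permutations. The quasi-likelihood fit was tested on simulated kidney counts, and the other steps were not. Alternatives were limma 3.58.1 (voom), DESeq2 1.42.0, the likelihood ratio test, other normalizations and filters, a replicate block, both tissues in 1 fit and leaving out libraries; 4 more, a covariate, leaving out 2 kidneys together, a block by treatment and number and Krt20 with no filter and without 1 kidney, were added after seeing the data. No 2 libraries had identical counts.

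The members and gene lists were chosen with earlier results of these data known. From the lists, the text names the most abundant gene in kidney, that with the largest fold change, and any past the threshold; from all other genes, the 5 most and 5 least like the members' mean. A gene that this rule would name is not reported here. Libraries are labelled as biological replicates, 1 per mouse and tissue. Floors from counts cover counting error only. The intervals of fold changes come from the edgeR fits and are not limited to counting error.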

Additional observations from a re-analysis of the deposited data

Results flagged for a closer look

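In 24 groups of 4 or 6 samples, 1 for each member and group with values above the count filter, the sample farthest from the others was checked with Dixon's criterion, which flags about 1 group in 20 by chance. It marked 3 values. Slc5a2 in the kidney of vehicle replicate 2 (373 CPM) was far below the other 3 vehicle kidneys, the nearest of which held 538 CPM. Slc22a8 in the same kidney (1071 CPM) was far above them, the nearest holding 628 CPM. This kidney is 1 of the 2 that stood apart in normalization factor and short-minus-long value, and Slc5a2 and Slc22a8 deviated in opposite directions in it. Lrp2 in the liver of vehicle replicate 3 (1.65 CPM, from 58 counts) was above the other vehicle livers, the nearest of which held 0.792 CPM. Without that liver, the log2 fold change of Lrp2 in liver went from -0.69 to -0.29 and the interaction value from 0.58 to 0.18, both moving by more than 1.5 times, and neither was called with or without it. Without the kidney of vehicle replicate 2, the log2 fold change of 7c against vehicle was -0.09 for Slc5a2 and 0.25 for Slc22a8, and neither passed the test.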

How the results depend on the processing

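No member and no further proximal tubule gene passed the threshold for 7c in kidney under any of 20 alternatives, and no member did in 18 liver and 28 interaction alternatives. Counts over all genes moved. In kidney they were 18 with DESeq2, 2 with limma-voom, 14 with the likelihood ratio test, 3 with no filter, 18 with both tissues in 1 fit, 1 with the short-minus-long covariate, 3 without the 2 kidneys that stood apart and 0 to 3 on leaving out 1 library. In liver they were 6 with DESeq2, 7 with the likelihood ratio test, 4 with no filter, 2 with filterByExpr, 4 with both tissues in 1 fit and 0 to 2 on leaving out 1 library. For the interaction they were 16 with DESeq2, 0 with limma-voom, 22 with the likelihood ratio test, 11 with no filter, 4 with filterByExpr and 1 to 10 on leaving out 1 library. Between tissues, Lrp2 and Aqp1, the 2 members the comparison can test, were called under all 15 alternatives. The count of members ran from 2 to 10, which is no test of the other 8: they passed the filter through the kidney alone and fall under it without 1 vehicle kidney by construction. The cause of the other moves was not tested.

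Signs turned for log2 fold changes near 0, none of them called. Slc22a8 was 0.0096 with limma-voom and 0.18 without the 2 kidneys that stood apart, which gave -0.12 for Slc5a2 and 0.032 for Slc22a6, and Slc34a1 was -0.016 with the covariate. Leaving out 1 library gave -0.087 to 0.085 for Slc5a2, -0.039 to 0.042 for Slc34a1, -0.13 to 0.074 for Slc22a6, -0.11 to 0.25 for Slc22a8, -0.0063 to 0.028 for Cubn, -0.18 to 0.011 for Aqp1 in liver and -0.15 to 0.030 for the ratio of Slc22a6 to Slc22a8.

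The replicate block was tried on the numbers in the labels, which do not say that a number marks the same mouse in both tissues. Kidney and liver of the same number and treatment deviated together with r from -0.01 to 0.29 (median 0.14, over 0.1 in 7 of 10 pairs), against a median of -0.04 for other numbers, and 7 of 10 kidneys were closest to the liver of their own number, a hint from the data and not from the design. Kidneys of 7c and vehicle with the same number, the pairs of the treatment comparison, had r of 0.05, -0.02, 0.32 and -0.04 and share only a number. With the replicate block, 0 genes were called in liver, Slc5a2 in kidney was -0.016, Slc7a13 -0.019 and Aqp1 in liver 0.0071. Between tissues the block gave 10.17 for Lrp2 and 2.41 for Aqp1, both still called, and for the interaction 0.55 and 0.25, neither called. A replicate block by treatment and number gave 0 genes called for the interaction, with 0.54 for Lrp2 and 0.25 for Aqp1. No block changed the call of a member. Levels under 3 counts in a liver could not be resolved at this depth.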

Other observations

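Marker lists of other parts of the nephron were read in the same kidneys, and none had a gene past the threshold for 7c in the edgeR fit. Of 7 thick ascending limb genes, 6 had fitted values above 0, with log2 fold changes of 0.02 for Umod, at 1996 CPM, and 0.26 for the tight junction gene Cldn19. Of 6 distal convoluted tubule genes, 2 were above 0, with 0.01 for the sodium-chloride carrier Slc12a3 and 0.16 for the calcium exchanger Slc8a1. In the collecting duct list, 4 of 8 tested genes were above 0, and the water channel Aqp2 had 0.19. In the thin limb list, the largest difference was that of the urea carrier Slc14a2, at 5.02 to 32.9 CPM with 7c and at 1.20, 23.8, 4.12 and 0.698 CPM in vehicle kidneys 1 to 4 (log2 fold change 1.28). The log2 fold change of Slc14a2 was 3.16 without vehicle replicate 2, a kidney that stood apart, and 0.90 without vehicle replicate 4. Without both kidneys that stood apart it was 2.89 (edgeR adjusted p = 0.580).

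Podocyte genes were fitted below 0, with -0.06 for Podxl and -0.22 for Wt1, and endothelial genes above 0, with 0.05 for Emcn and 0.14 for Pecam1, but the sign turned for 1 of 5 and 4 of 6 of them on leaving out 1 kidney. In the stromal list, 3 of 5 fitted values were above 0 and 2 below, with 0.13 for Pdgfrb and 0.30 for Col1a1. The immune list had 4 of 5 above 0 and 1 below, with 0.01 for Ptprc and 0.21 for Cd3e. Of 5 genes shared with bile duct cells, 3 were above 0 and 2 below, with 0.28 for Krt7 and 0.67 for Krt19. Genes that rise in injured tubules gave 0 of 6 called, with 1 fitted value above 0 and 5 below. Spp1, at 418 CPM, had 0.03 and Krt20, at 0.337 CPM, had -0.79. The value for Krt20 rested on vehicle replicate 3, at 1.18 CPM, without which the gene fell under the count filter. With no filter its log2 fold change was -0.77 with that kidney and 0.33 without it. On leaving out 1 kidney, the signs for Umod, Slc12a3, Emcn, Ptprc and Spp1 also turned, as did those of 5 of 7 thick ascending limb genes and 4 of 6 distal convoluted tubule genes. Of the other genes named here, Cldn19 ran from 0.15 to 0.40, Slc8a1 from 0.04 to 0.26 and Aqp2 from 0.02 to 0.44. The ranges were -0.17 to -0.0098 for Podxl, -0.44 to -0.08 for Wt1, 0.07 to 0.19 for Pecam1, 0.07 to 0.19 for Pdgfrb and 0.20 to 0.40 for Col1a1. Cd3e ran from 0.08 to 0.39, Krt7 from 0.16 to 0.58 and Krt19 from 0.06 to 1.46.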
